A study of Homo sapiens with 6 samples.

Results

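The genes described here are 10 transcription factors and surface or secreted proteins that mark the ovary, the Müllerian duct and the carcinomas that arise from them. The list holds PAX2, PAX8, LHX1, MECOM, SOX17, EMX2, WT1, MUC16, WFDC2 and FOLR1. A row was taken for a gene when the symbol column of the deposited fold-change table equalled its name, and the row was joined by Ensembl identifier to the table of raw counts. Of the 10 genes, 6 had a row among the 14646 genes of the count table, and all 6 were among the 13791 genes that passed the filter on low counts. EMX2, WT1, MUC16 and WFDC2 had no row by symbol or by Ensembl identifier. They are given as not counted, with no level.

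PAX2, PAX8, LHX1, EMX2 and WT1 are transcription factors that build the intermediate mesoderm, from which the kidney and the Müllerian duct, the forerunner of the oviduct and uterus, both form. PAX8 and SOX17 stay on in the secretory cells of the adult oviduct and in many ovarian carcinomas, where MECOM, a zinc finger factor, is often present in extra copies. FOLR1, a receptor for folates, MUC16, which carries the CA125 antigen, and WFDC2, a secreted protein also called HE4, are used as markers of ovarian carcinoma.

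IGROV1 is an ovarian cancer cell line with a mutation in PIK3CA, and GDC0032 is an inhibitor of the PI3K enzymes that spares the beta isoform. IGROV1Res, the GDC0032-resistant form, was derived by the study from IGROV1 by growth in rising concentrations of GDC0032, and it was set against IGROV1Sen, the GDC0032-sensitive form. Both forms carry the PIK3CA mutation, each group had 3 libraries, and the letters UT in the labels, which are not spelled out there, were read as cells without GDC0032. The methods describe cells given GDC0032 or its solvent DMSO before RNA was taken. The labels name a single resistant line of IGROV1, so a difference between the lines cannot be told apart from a difference particular to that derivation.

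The 6 libraries held 12808922 to 15241394 counts, so that 3 counts in a library stood for 0.198 to 0.236 CPM, which are counts per 1000000 counts of the library, here scaled by TMM factors. Mitochondrially encoded genes took 12.76%, 10.1% and 6.94% of the counts in IGROV1Res replicates 1, 2 and 3, against 7.02%, 12.6% and 12.0% in IGROV1Sen replicates 1, 2 and 3. IGROV1Sen replicates 2 and 3 were the closest pair of a group, at 1.47 by chi-square over its degrees of freedom across genes, where the other pairs had 11.9 to 32.7. Whether replicates were separate cultures is not given in the labels, so p-values measure the spread between these libraries only. As a check of the labelled cell type, the summed level of 6 epithelial markers was 1312 to 1584 CPM in IGROV1Res and 605 to 636 CPM in IGROV1Sen, nearly all of it keratins. KRT18 averaged 1063 CPM in IGROV1Res and 295 CPM in IGROV1Sen, and KRT8 averaged 53.8 and 7.94 CPM. KRT19 went the other way, with 282 CPM in IGROV1Res and 320 CPM in IGROV1Sen, and was not called. EPCAM was low in both, with 42, 24 and 15 counts in IGROV1Res and 7, 11 and 13 counts in IGROV1Sen, and CDH1 had 20, 18 and 9 counts in IGROV1Res and 7, 12 and 7 counts in IGROV1Sen. Fibroblast markers summed to 33.8 to 50.3 CPM in IGROV1Res and 25.6 to 28.7 CPM in IGROV1Sen. Their directions differed, with log2 fold changes of 1.68 for PDGFRB, called higher, and -0.84 for COL1A1, called lower. PDGFRA was not called at -0.08, and LUM had 69 counts in IGROV1Res and 1 in IGROV1Sen. Endothelial markers summed to 175 to 178 CPM in IGROV1Res and 114 to 142 CPM in IGROV1Sen, from CDH5 and VWF, the 2 of 6 with a row. CDH5, an endothelial cadherin, made up most of this, with 2256, 2394 and 2317 counts in IGROV1Res and 1614, 1604 and 1531 counts in IGROV1Sen, and was called higher with a log2 fold change of 0.54 (edgeR quasi-likelihood adjusted p = 0.00146). The part of these markers in the results was not tested. None of 8 leukocyte markers was in the count table.

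Of the 6 counted genes, 4 were lower in IGROV1Res than in IGROV1Sen, namely PAX2, LHX1, MECOM and FOLR1. SOX17 was higher in IGROV1Res, and PAX8 did not pass the test. Calls were made with edgeR's quasi-likelihood test at an adjusted p (Benjamini-Hochberg, over all genes tested) under 0.05, and log2 fold changes are those of IGROV1Res over IGROV1Sen. Among all 13791 genes tested, 18.3% were called lower, 17.4% higher and 35.7% in either direction, and 47.8% had no overlap between the groups. PAX2 and LHX1 also had a log2 fold change of at most -1, as did 5.88% of all genes among those called lower, while 4.5% of all genes were called higher with at least 1. The same 4 genes that were called lower had no overlap between the groups. The median log2 fold change over all genes was -0.01. In RNA from whole cultures, fewer cells that express a gene and less RNA of it per cell cannot be told apart.

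**Figure D1:**
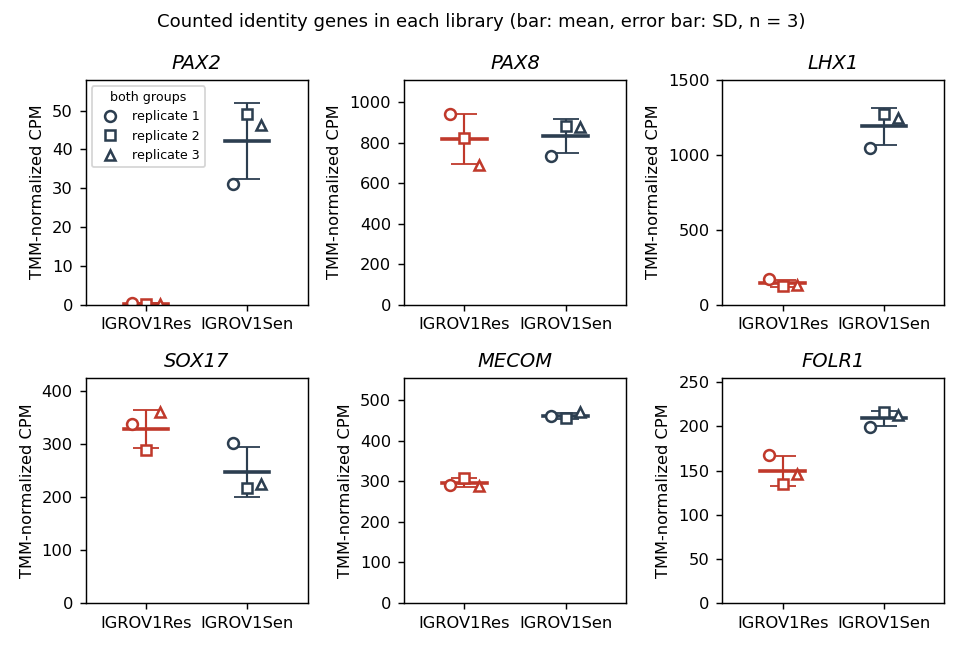
Level of each counted gene in TMM-scaled CPM (y axis, from 0), with IGROV1Res in red left of IGROV1Sen in blue; symbols are libraries by replicate number, bars are means and error bars are SD of 3 libraries. PAX2, LHX1, MECOM and FOLR1 lie lower in all IGROV1Res libraries than in any IGROV1Sen library, while PAX8 and SOX17 overlap.

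PAX2, a paired-box factor needed for the kidney and for the Müllerian duct, was nearly absent from the IGROV1Res libraries. It had 7, 1 and 1 counts in IGROV1Res replicates 1, 2 and 3, against 394, 743 and 661 counts in IGROV1Sen replicates 1, 2 and 3. As levels these were 0.511, 0.0700 and 0.0701 CPM in IGROV1Res and 31.0, 49.1 and 46.3 CPM in IGROV1Sen. The groups were far apart, and within each group the library that differed most was replicate 1, the highest of IGROV1Res and the lowest of IGROV1Sen. The means were 0.217 ± 0.255 CPM in IGROV1Res and 42.1 ± 9.75 CPM in IGROV1Sen (SD, n = 3 each). The exact 95% Poisson interval of 1 count in IGROV1Res replicate 2 ran from 0.00177 to 0.390 CPM, and that of the 7 counts in replicate 1 from 0.206 to 1.05 CPM, for counting error only. The log2 fold change of PAX2 was -7.57 (SE 0.39, 95% interval -8.66 to -6.48, edgeR quasi-likelihood adjusted p = 1.79e-06), the 9th lowest of all genes tested. Without IGROV1Res replicate 1, which held 7 of the 9 IGROV1Res counts, the log2 fold change was -9.06, outside the 95% interval of the fit. The SE of that fit was derived from its test statistic, and DESeq2 gave a larger SE of 0.52 at -7.62. Since leaving out 1 library moved the value outside it, the interval is not a full measure of error for a gene with so few IGROV1Res counts. PAX2 (ENSG00000075891) lies on the plus strand of chromosome 10 of GRCh38 at chr10:100735603-100829941.

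PAX2 has a pair of annotated transcription starts in RefSeq, and the promoters of both are shown because the gene was close to undetected in IGROV1Res as a whole. They come from GRCh38.p14, run from 250 bases before to 50 after each start, and lie on the plus strand at chr10:100735146-100735445 and chr10:100745332-100745631. GC content was 63.7% with 14 CG dinucleotides in the upstream promoter and 66.7% with 19 in the downstream one, against medians of 58.7% and 14 over 35116 RefSeq promoters. A set of 7 motifs, spelled out after the sequences, was searched on both strands, with capitals for a match, and neither promoter held one.
PAX2 upstream start: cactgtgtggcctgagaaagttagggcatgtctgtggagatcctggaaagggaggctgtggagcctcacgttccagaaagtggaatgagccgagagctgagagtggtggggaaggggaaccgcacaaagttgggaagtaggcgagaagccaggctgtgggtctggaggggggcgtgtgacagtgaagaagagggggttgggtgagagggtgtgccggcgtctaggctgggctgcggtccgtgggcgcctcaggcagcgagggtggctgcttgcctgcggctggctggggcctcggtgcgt
PAX2 downstream start: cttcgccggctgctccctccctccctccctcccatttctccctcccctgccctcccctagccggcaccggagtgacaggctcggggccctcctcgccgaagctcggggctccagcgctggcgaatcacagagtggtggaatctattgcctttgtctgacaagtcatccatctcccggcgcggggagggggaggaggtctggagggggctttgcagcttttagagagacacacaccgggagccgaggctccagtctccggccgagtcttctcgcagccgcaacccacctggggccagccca
Of all promoters of that length, 9.02% held GTCACG, a core of paired-box sites, 4.84% held TAATTA, a core of LIM homeodomain sites, 10.1% held AACAAT, a core of SOX sites, and 0.0968% held GACAAGATA, a core of MECOM sites. The general promoter motifs were more frequent, with TATAAA in 11.5%, CCAAT in 34.6% and GGGCGG in 45%. A match or its lack describes the letters of these windows only.

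LHX1, a LIM homeodomain factor that mice need for the head, the kidney and the Müllerian duct, was the other gene with a large decrease. LHX1 had 2317, 1811 and 1828 counts in IGROV1Res and 13363, 19301 and 17855 counts in IGROV1Sen (replicates 1, 2 and 3). Its levels were 169, 127 and 128 CPM in IGROV1Res and 1051, 1275 and 1251 CPM in IGROV1Sen. In each group replicate 1 was set apart from the other two, which lay close together, and it was the highest of IGROV1Res and the lowest of IGROV1Sen. LHX1 averaged 141 ± 24.2 CPM in IGROV1Res and 1192 ± 123 CPM in IGROV1Sen (SD, n = 3 each). The fitted log2 fold change of LHX1 was -3.08 (SE 0.14, 95% interval -3.47 to -2.69, edgeR quasi-likelihood adjusted p = 8.63e-07), the 113th lowest of all genes tested. LHX1 (ENSG00000273706) lies on the plus strand at chr17:36936785-36944612. Unlike PAX2, it stayed well above the detection floor in IGROV1Res.

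Transcripts beside LHX1 were lower as well. LOC102723471, named LHX1-DT in GENCODE, starts 124 bases from LHX1 in the opposite direction and does not overlap it. It had 249, 165 and 172 counts in IGROV1Res and 875, 1113 and 1079 counts in IGROV1Sen, with a log2 fold change of -2.38 (SE 0.16, edgeR quasi-likelihood adjusted p = 7.38e-06). AC243773.1, an antisense transcript inside LHX1, had 40, 63 and 29 counts in IGROV1Res and 154, 316 and 275 counts in IGROV1Sen, with a log2 fold change of -2.48 (edgeR quasi-likelihood adjusted p = 0.000230). Neither transcript overlapped between the groups. It is not stated whether the libraries kept the strand, so reads of LHX1 and of the antisense transcript cannot be told apart.

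PAX8, the paired-box factor used to identify Müllerian and renal carcinomas, did not pass the test. PAX8 had 12898, 11729 and 9886 counts in IGROV1Res and 9344, 13363 and 12542 counts in IGROV1Sen, or 942, 822 and 693 CPM in IGROV1Res and 735, 883 and 879 CPM in IGROV1Sen. The ranges overlapped almost entirely. PAX8 averaged 819 ± 125 CPM in IGROV1Res and 832 ± 84.4 CPM in IGROV1Sen (SD, n = 3 each), with a log2 fold change of -0.02 (SE 0.13, 95% interval -0.38 to 0.33, edgeR quasi-likelihood adjusted p = 0.905). In each group the library with the lowest mitochondrial share, IGROV1Res replicate 3 and IGROV1Sen replicate 1, had the lowest PAX8 level. Its part in the result was not tested.

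The promoter of PAX8 is shown because its gene, a close relative of PAX2, did not pass the test. It lies on the minus strand at chr2:113278872-113279171 in GRCh38.p14 (RefSeq), and capitals mark 2 CCAAT boxes, beginning 240 and 82 bases before the transcription start. GC content was 62.0%, with 13 CG dinucleotides, and no other motif of the set was found.
PAX8: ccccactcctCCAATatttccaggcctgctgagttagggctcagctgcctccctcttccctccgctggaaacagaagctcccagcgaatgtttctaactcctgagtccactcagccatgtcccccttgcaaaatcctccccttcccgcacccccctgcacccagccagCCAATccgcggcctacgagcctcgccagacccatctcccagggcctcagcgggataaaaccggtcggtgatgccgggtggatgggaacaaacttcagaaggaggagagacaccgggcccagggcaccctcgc
PAX8 (ENSG00000125618) lies at chr2:113215997-113278950 and is overlapped on the other strand by PAX8-AS1. PAX8-AS1 had 2248, 1312 and 749 counts in IGROV1Res and 630, 1935 and 1668 counts in IGROV1Sen, with a log2 fold change of 0.07 (95% interval -1.08 to 1.21, edgeR quasi-likelihood adjusted p = 0.918). The order of the libraries within each group was that of PAX8, and the direction turned when a replicate block was fitted or when replicate 1 of either group was left out. Without strand, reads of PAX8 and PAX8-AS1 cannot be told apart.

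MECOM, which also goes by EVI1 and carries a distal first exon called MDS1, was lower in IGROV1Res with little spread between replicates. MECOM had 4001, 4419 and 4113 counts in IGROV1Res and 5859, 6896 and 6715 counts in IGROV1Sen, or 292, 310 and 288 CPM in IGROV1Res and 461, 456 and 470 CPM in IGROV1Sen. No library of IGROV1Res came near the lowest of IGROV1Sen. The means were 297 ± 11.3 CPM in IGROV1Res and 462 ± 7.54 CPM in IGROV1Sen (SD, n = 3 each). The log2 fold change of MECOM was -0.64 (SE 0.074, 95% interval -0.85 to -0.43, edgeR quasi-likelihood adjusted p = 0.000214). MECOM (ENSG00000085276) lies on the minus strand at chr3:169083499-169663618.

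The promoter of its distal start is shown as the only promoter among those printed that held a SOX core. It lies on the minus strand at chr3:169663663-169663962 in GRCh38.p14 (RefSeq), and capitals mark 2 adjacent AACAAT motifs, beginning 249 and 243 bases before the start, and 2 GC boxes (GGGCGG, read on the other strand), beginning 111 and 101 bases before it. GC content was 54.7%, with 19 CG dinucleotides. The SOX core was in 10.1% and the GC box in 45% of all promoters.
MECOM distal start: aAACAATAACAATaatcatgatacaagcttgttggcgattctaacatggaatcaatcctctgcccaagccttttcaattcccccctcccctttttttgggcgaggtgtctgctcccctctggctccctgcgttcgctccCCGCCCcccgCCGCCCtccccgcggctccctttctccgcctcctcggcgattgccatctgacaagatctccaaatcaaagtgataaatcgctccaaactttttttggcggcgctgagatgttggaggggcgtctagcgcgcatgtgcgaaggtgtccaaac
Counts per gene do not separate the transcripts from the distal start from those that begin further downstream, so these data give no level for either. RPL22P1, a ribosomal protein pseudogene inside MECOM, had a log2 fold change of -0.32 (edgeR quasi-likelihood adjusted p = 0.314).

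SOX17, an HMG-box factor of endoderm and of the Müllerian epithelium, was the one gene called higher. SOX17 had 4620, 4127 and 5134 counts in IGROV1Res and 3845, 3278 and 3198 counts in IGROV1Sen, or 338, 289 and 360 CPM in IGROV1Res and 302, 217 and 224 CPM in IGROV1Sen. The groups overlapped, since IGROV1Res replicate 2 lay under IGROV1Sen replicate 1. The means were 329 ± 36.1 CPM in IGROV1Res and 248 ± 47.5 CPM in IGROV1Sen (SD, n = 3 each). The log2 fold change of SOX17 was 0.41 (SE 0.14, 95% interval 0.03 to 0.79, edgeR quasi-likelihood adjusted p = 0.0441), just inside the threshold. The call was lost with a replicate block (adjusted p = 0.0564), with IGROV1Sen replicates 2 and 3 summed to 1 library (adjusted p = 0.153), and without IGROV1Res replicate 1 (0.0900), IGROV1Res replicate 3 (0.130), IGROV1Sen replicate 2 (0.158) or IGROV1Sen replicate 3 (0.153). Without IGROV1Sen replicate 1 the log2 fold change was 0.58 (edgeR quasi-likelihood adjusted p = 0.00168). Highest SOX17 in each group was in the library with the lowest mitochondrial share, IGROV1Res replicate 3 and IGROV1Sen replicate 1. Without both of these libraries the log2 fold change of SOX17 was 0.51 (edgeR quasi-likelihood adjusted p = 0.0024). With mitochondrially encoded genes left out it was 0.42 (edgeR quasi-likelihood adjusted p = 0.0352). The part of the mitochondrial share in the result was not tested. SOX17 (ENSG00000164736) lies on chromosome 8 from 54457935 to 54460888.

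FOLR1, which takes up folates and is the target of antibodies used against ovarian carcinoma, was lower in IGROV1Res by a small margin. FOLR1 had 2296, 1916 and 2082 counts in IGROV1Res and 2538, 3267 and 3031 counts in IGROV1Sen, or 168, 134 and 146 CPM in IGROV1Res and 200, 216 and 212 CPM in IGROV1Sen. No overlap was seen; IGROV1Res replicate 1 came closest to the lowest IGROV1Sen library. FOLR1 averaged 149 ± 17.0 CPM in IGROV1Res and 209 ± 8.57 CPM in IGROV1Sen (SD, n = 3 each). The log2 fold change of FOLR1 was -0.49 (SE 0.095, 95% interval -0.75 to -0.22, edgeR quasi-likelihood adjusted p = 0.00368). FOLR1 (ENSG00000110195) lies at chr11:72189558-72196323.

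**Figure D2:**
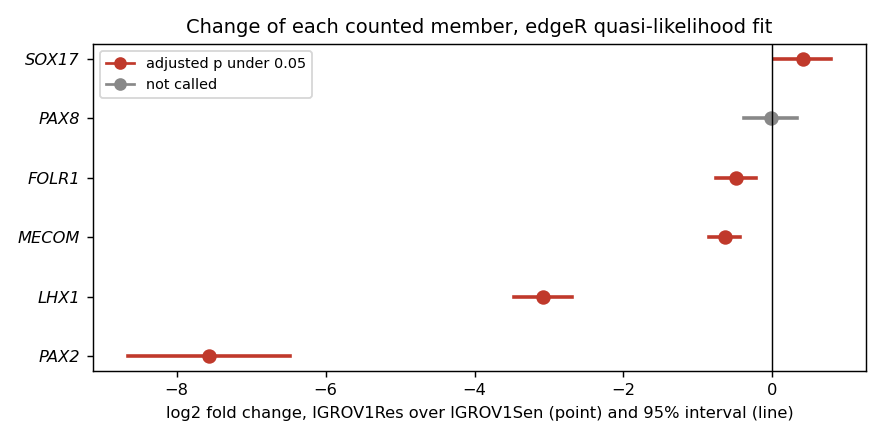
Log2 fold change of IGROV1Res over IGROV1Sen for each counted gene with its 95% interval. PAX2 at -7.57 and LHX1 at -3.08 stand well apart from the other 4, which lie between -0.64 and 0.41.

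Levels of different genes were compared as CPM per kilobase of annotated exon, since long genes collect more counts. In IGROV1Res the order was SOX17 with 140 ± 15.4, PAX8 with 111 ± 16.9, FOLR1 with 90.6 ± 10.3, MECOM with 32.6 ± 1.25, LHX1 with 29 ± 4.95 and PAX2 with 0.0348 ± 0.0408 CPM per kilobase (SD, n = 3). SOX17 and PAX8, PAX8 and FOLR1, and MECOM and LHX1 overlapped between their libraries and are not ordered with certainty. In IGROV1Sen the order was LHX1 with 244 ± 25.2, FOLR1 with 127 ± 5.2, PAX8 with 112 ± 11.4, SOX17 with 106 ± 20.3, MECOM with 50.8 ± 0.828 and PAX2 with 6.75 ± 1.56 CPM per kilobase, and SOX17, through replicate 1, overlapped with both PAX8 and FOLR1. LHX1 thus held the first place in IGROV1Sen and the fifth in IGROV1Res. With the length of the longest transcript in place of all exons, PAX8 came first in IGROV1Res at 197 CPM per kilobase and, in IGROV1Sen, followed LHX1 at 200.4.

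Ratios within a library do not depend on the scaling factors. LHX1 per kilobase was 27.2%, 23.4% and 28.0% of PAX8 in IGROV1Res and 217%, 219% and 216% in IGROV1Sen. PAX2 was 0.0643%, 0.0101% and 0.0120% of PAX8 in IGROV1Res and 5.0%, 6.59% and 6.25% in IGROV1Sen. LHX1 ranked at the 88.4th percentile of 13759 genes by level per length in IGROV1Res and at the 99.4th in IGROV1Sen, where 86 genes lay above it. PAX2 ranked at the 0.487th percentile in IGROV1Res and at the 57.6th in IGROV1Sen.

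**Figure D3:**
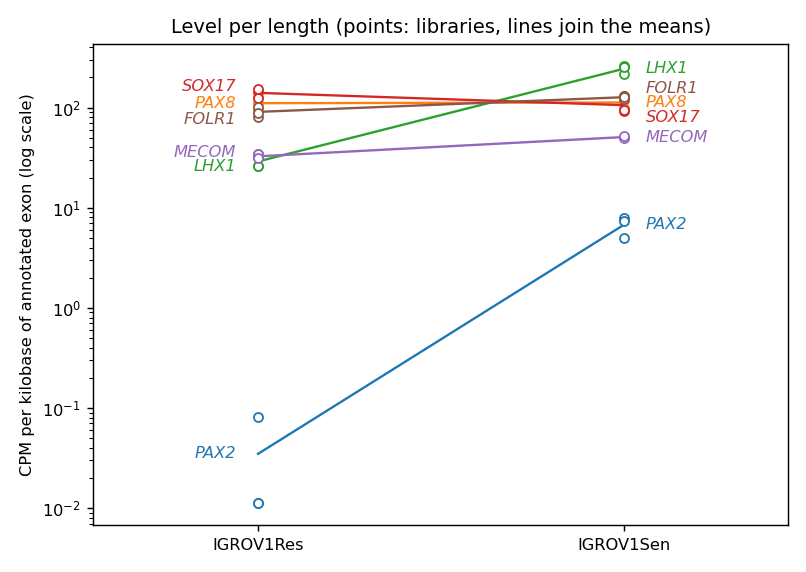
Level of each counted gene in CPM per kilobase of annotated exon (log scale), with IGROV1Res at left and IGROV1Sen at right; points are libraries and lines join the means. The lines of LHX1 and PAX2 are steep, while those of PAX8, FOLR1, SOX17 and MECOM are much flatter.

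The genes around each of the 6 on its chromosome were described with the 10 tested genes on either side. These windows spanned 1.37 Mb for PAX2, 1.92 Mb for FOLR1, 2.61 Mb for LHX1, 5.57 Mb for PAX8, 10.2 Mb for MECOM and 10.7 Mb for SOX17. Some of the genes thus lay far from the member. Of all genes tested, 17.4% were called higher and 18.3% lower. Around PAX2 the median log2 fold change was -0.23, against -0.17 over chromosome 10, with none called higher and 5 called lower, down to OLMALINC at -1.46, and no neighbour approached the change of PAX2. Around LHX1 it was -0.05, against 0.03 over chromosome 17, with 2 called higher and 3 lower, among them the pair of transcripts named above. Around SOX17, which itself was 0.41, the median was 0.48 and 15 of 20 genes were called higher and none lower. Chromosome 8 as a whole had a median of 0.39, next to 0.41 for SOX17. Around PAX8 the median was 0.43, against 0.05 over chromosome 2, with 11 of 20 called higher and 1 lower, ZC3H6 at -1.26. PAX8 itself stood at -0.02. Around MECOM the median was -0.34, with 6 called lower and none higher, and chromosome 3 had a median of -0.27. Around FOLR1 the median was 0.01, against 0.08 over chromosome 11, with 6 called higher and 1 lower.

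**Figure D4:**
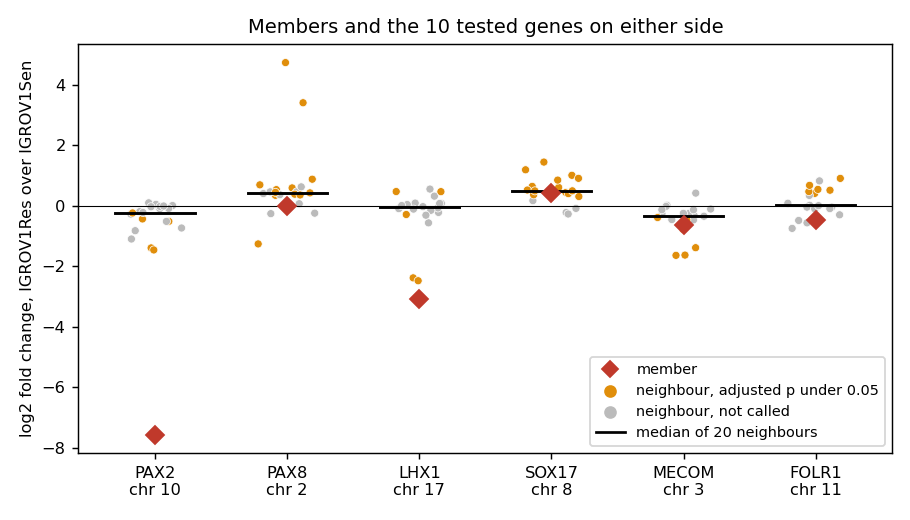
Log2 fold change of IGROV1Res over IGROV1Sen of the 10 tested genes on either side of each counted gene (points, orange where called, spread sideways for legibility), with the gene itself as a red diamond and the median of its 20 neighbours as a bar. PAX2 and LHX1 lie under their neighbours, while SOX17 lies among them.

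The genes most like PAX2 in pattern over the 6 libraries, by Pearson correlation of log2 CPM, were TOX3, an HMG-box gene (r = 0.9999), LMO4, a LIM-only factor (r = 0.9997), and SLC29A3, a nucleoside transporter (r = 0.9995). TOX3 had 24, 10 and 10 counts in IGROV1Res and 464, 717 and 687 in IGROV1Sen. LMO4 had 1368, 963 and 945 counts in IGROV1Res and 6602, 8972 and 8509 in IGROV1Sen. In a comparison of 2 groups a gene that differs strongly correlates with any other such gene, and 167 other tested genes had r over 0.99.

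Related genes were taken from 7 lists around the members, written with earlier results of these data known. Of 230 listed genes, 121 were tested, and 21 (17.4%) were called higher and 45 (37.2%) lower, with a median log2 fold change of -0.30, against 17.4%, 18.3% and -0.01 over all genes. Transcription factors of the kidney and Müllerian duct were called lower in 15 of 26 (57.7%) and higher in 2 (7.69%), with a median of -0.54. DACH1, a cofactor of eye and limb patterning, had a log2 fold change of -1.81, SOX4, an HMG-box factor, of -1.58, TFCP2L1, a factor of kidney collecting ducts, of -2.24 and IRX3, an Iroquois factor, of -2.73. OSR2 and EYA4 went the other way at 1.80 and 1.87. Among 18 tested relatives of the members, 9 were called lower and none higher, with a median of -0.62. EGR1, a zinc finger gene of that list, had the highest log2 fold change among them at 0.97, without a call (edgeR quasi-likelihood adjusted p = 0.0646).

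Of 22 tested genes of signaling between duct and mesenchyme, 4 (18.2%) were called higher and 6 (27.3%) lower, with a median of -0.33. Of all genes tested, 17.4% were called higher and 18.3% lower. RET, the receptor of GDNF in the growing ureteric bud, had a log2 fold change of -2.63, BMP4 of -2.70 and SLIT2 of -3.80, while BMP7 had 0.56 and WNT5A 0.55. FGF9 had 71 counts in IGROV1Res and 1 in IGROV1Sen, a ratio of 70.8 (95% counting interval 12.3 to 2836). Of 14 listed HOX genes of the reproductive tract, 5 were tested, with 3 called lower and 1 higher. These were HOXC10 at -2.14, HOXC9 at -1.27, HOXD9 at -0.55 and HOXD8 at 0.40. HOXA9, HOXA10, HOXA11 and HOXA13 were among the listed genes without a row, so the list does not describe these HOX genes as a whole. Carcinoma and secretory markers were called higher in 7 and lower in 7 of 23 (30.4% each), with a median of -0.18. KRT8 had a log2 fold change of 2.75, KRT18 of 1.85 and SPINT1, a protease inhibitor, of 2.47. ELF3, an epithelial ETS factor, had -1.02 and L1CAM, an adhesion protein, -0.84.

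Around FOLR1, 21 genes of folate uptake and one-carbon metabolism were tested, of which 5 (23.8%) were called higher and 3 (14.3%) lower, with a median of 0.12. These shares were near those of all genes tested, 17.4% higher and 18.3% lower. The log2 fold change was 0.68 for MTHFD1L, 0.45 for ATIC and 0.34 for MTRR, and it was -0.95 for GGH, which trims folate side chains, and -1.23 for ALDH1L2. Of 23 listed markers of ovarian stroma, granulosa cells and mesothelium, 7 were tested, with 2 called higher and 2 lower (28.6% each). CALB2, calretinin, had a log2 fold change of 6.04 and LRRN4 of 3.71, both known from mesothelium. UPK3B at 0.51 (edgeR quasi-likelihood adjusted p = 0.0530), DES at 0.27 and INHBB at -0.34 were not called. UPK1B, BNC1, ITLN1 and PRG4 were among the listed genes without a row, so the list does not describe mesothelium as a whole. GATA6 had -0.61, and FOXL2, a granulosa factor, -1.48. Their part in the levels of the members was not tested. Among the genes named from these lists, the call was lost in 6 of the other settings for HOXD8, in 5 for FOXL2, in 3 for MTRR and in 2 for HOXD9.

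**Figure D5:**
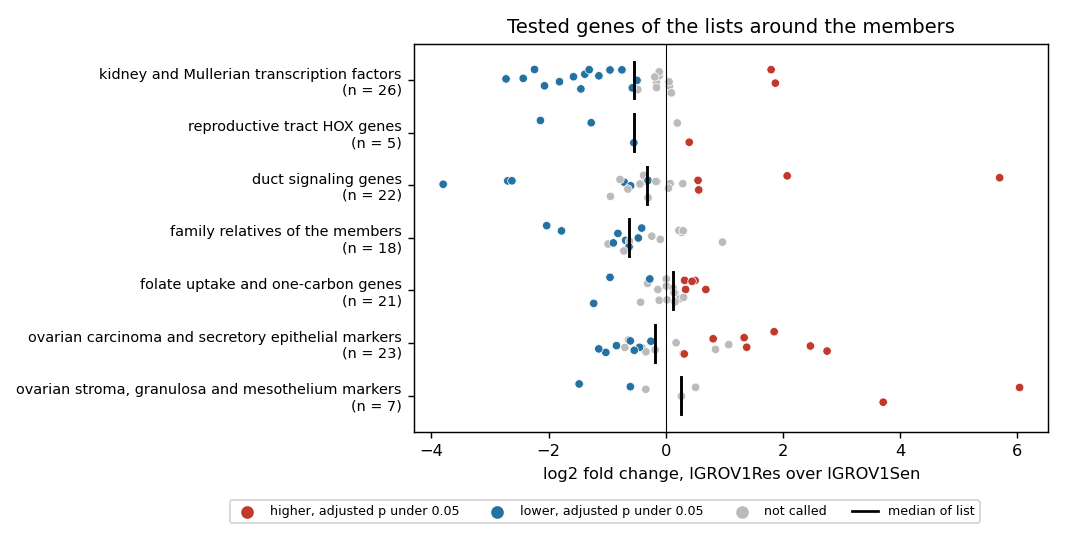
Log2 fold change of IGROV1Res over IGROV1Sen of the tested genes of the 7 lists around the members (points) and the median of each list (bars), with color by the call. Genes without counts in a group are not drawn, and FGF9, near the right end, rests on 1 count in IGROV1Sen, so its fitted value is not a bound.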

How the data were processed

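RNA of IGROV1Res and IGROV1Sen cells was sequenced by the authors as single-end 60-bp reads, and the deposited values are raw counts per Ensembl gene filtered for quality by an unstated rule. Processing notes of the submitters list edgeR and build hg18. The aligner and the counting tool are not given in the sources used here. A second deposited table of fold changes was used for gene symbols only; its log2 fold changes, likelihood ratios and p-values, made by the authors, were not used. Coordinates and exon lengths came from GENCODE release 29 on GRCh38, and promoters from RefSeq.

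The whole table was fitted in edgeR 4.0.16 under R 4.3.3 (filterByExpr with a minimum count of 10 and a minimum total of 15, TMM, glmQLFit and glmQLFTest, condition as the only term). SE was computed as |log2 fold change| divided by the root of F. The members and lists were chosen with earlier results of these data known. Eligible for naming were, per list and direction, the 3 called genes of smallest adjusted p, and the genes at both ends. Genes beside members and 3 genes most like PAX2 were added, and cell type markers such as EPCAM and CDH1 were also named. Some results under this rule are not reported here. Alternatives were the likelihood ratio test, DESeq2 1.42.0, other normalizations, filters and thresholds, a replicate block, libraries left out or summed, and mitochondrial genes left out. The edgeR and DESeq2 fits were tested on simulated data, with fold changes far smaller than that of PAX2. Levels per length, neighbours, lists and promoters were not covered by that test.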

Additional observations from a re-analysis of the deposited data

How the results depend on the processing

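PAX2, LHX1, MECOM and FOLR1 kept their direction in every alternative that tested them, and their call in all but the limit on fold size. PAX2 could not be tested with at least 10 counts in every library, which left 3 genes of the set called lower, and a limit of 1 on the absolute fold change (log2) left 2, PAX2 and LHX1. Leaving out 1 library at a time gave 4 throughout. SOX17, the 1 gene called higher, became 0 with IGROV1Sen replicates 2 and 3 summed, with a replicate block, with an adjusted p under 0.01 and with a fold change limit of 1, and 0 to 1 when single libraries were left out. The log2 fold change of PAX8, never called, turned to 0.017 with IGROV1Sen replicates 2 and 3 summed, to 0.0030 without the 2 libraries of lowest mitochondrial share, and ran from -0.13 to 0.086 without single libraries, positive without IGROV1Res replicate 3, IGROV1Sen replicate 2 or IGROV1Sen replicate 3. That of PAX8-AS1 turned to -0.0064 with a replicate block, to -0.44 without IGROV1Res replicate 1 and to -0.25 without IGROV1Sen replicate 1. Replicate numbers were not used as pairs, since deviations of same-numbered libraries from their group means correlated at only -0.43, 0.095 and -0.40. The highest correlation, 0.545, was between libraries of different number, IGROV1Res replicate 3 and IGROV1Sen replicate 1. Over all genes, the number called higher was 1530 with a replicate block, 1373 at an adjusted p under 0.01, 620 with the fold limit and 1538 to 3023 without single libraries (1572 without IGROV1Sen replicate 2, 1538 without IGROV1Sen replicate 3), and genes called lower in IGROV1Res numbered 1732 with a replicate block, 1584 at an adjusted p under 0.01, 811 with the fold limit and 1814 to 2992 without single libraries. Of the listed genes, 11 were higher and 22 lower with the fold limit, and 16 to 24 and 31 to 51 without single libraries. With the longest transcript as length, levels were 10.2 CPM per kilobase for PAX2 in IGROV1Sen, and in IGROV1Res and IGROV1Sen 197 and 200.4 for PAX8, 41.3 and 348 for LHX1, 51.8 and 80.6 for MECOM and 112 and 157 for FOLR1. With 5 genes on either side the medians were -0.17 around PAX2, 0.52 around PAX8, 0.056 around LHX1 and 0.62 around SOX17. With 10 genes on either side, the median around PAX8 was 0.38 to 0.44 without single libraries. Of 687 values of 41 other genes that were eligible for naming or lay beside members, 33 in 6 genes lost the call, 4 in EGR1 gained it and 3, in PAX8-AS1, turned. Not all of these genes are named above. The cause was not tested. The level of PAX2 in IGROV1Res rests on 9 counts over 3 libraries.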
